A study of Rattus norvegicus with 24 samples.

Results

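The proteasome subunit genes were followed in rat testis before birth and at puberty, in controls and in animals given dibutyl phthalate (DBP), an antiandrogenic plasticizer. They are the genes whose symbol is Psm followed by one of the letters a to g and a number, each read from the brightest of its probe sets (the probes that together report 1 transcript region) by the mean of 24 arrays. The rule found 46 genes among the 14217 that have a probe set with a single gene symbol. It takes in 2 genes whose products lie outside the complex, Psmc3ip, named after a binding partner and known as a cofactor of meiotic recombination, and Psme3ip1, named for binding a proteasome activator. Psmb6 and Psme3 have probe sets that carry several symbols and, like Psma8 and Psmb11, are not analysed here.

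Testis RNA of male Fisher 344 rats was hybridised to Rat230_2 arrays in 6 groups of 4. At gestational day 20 (GD20) the fetuses of dams gavaged daily from day 12 to day 20 with corn oil (dams 2, 3, 4 and 5, with dam 2 labelled as a pool) or with DBP at 50 mg/kg in corn oil (dams 16, 18, 19 and 21) were sampled. The labels give 6 hours after the last dose for the DBP fetuses and no interval for the oil fetuses. At postnatal day 35 (PND35) pups of such dams received a single second gavage of corn oil or of DBP at 500 mg/kg, and the testis was taken 6 hours later. The PND35 groups are named by the fetal and then the postnatal treatment: oil-oil (pups 104, 110, 114 and 120), oil-DBP (105, 111, 115 and 121), DBP-oil (123, 127, 132 and 134) and DBP-DBP (124, 128, 133 and 135). All animals, controls included, received the corn oil vehicle, and every testis was freed of its capsule and frozen whole, so each value is a mixture of all its cells. The labels do not tie pups to dams.

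The proteasome is the barrel-shaped protease that degrades proteins tagged with ubiquitin. Its 20S core is built of alpha rings (Psma genes), which gate the entry, around beta rings (Psmb genes), which hold the catalytic sites. The 19S cap unfolds and feeds substrates: its ATPases are encoded by Psmc genes and its other subunits, among them the ubiquitin receptor Psmd4 and the deubiquitinase Psmd14, by Psmd genes. In cells exposed to interferon, Psmb8, Psmb9 and Psmb10 replace the catalytic subunits Psmb5, Psmb6 and Psmb7, and the cap PA28, made of Psme1 and Psme2, joins the core. This immunoproteasome cuts peptides for presentation on MHC class I. In the testis a further cap, PA200 (Psme4), is known for the degradation of histones in maturing spermatids, and PI31 (Psmf1) is a proteasome-binding protein also known from sperm formation in flies.

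The gene order in the reference annotation (GRCr8) places Psmb8 and Psmb9 on chromosome 20 in the MHC, in the order Tap2, Psmb8, Tap1, Psmb9, where Tap1 and Tap2 encode the peptide transporter that loads MHC class I. Psme1 and Psme2 lie on chromosome 15 with only Emc9 between them, and Psme2 is followed by Rnf31 and Irf9. Psmb10 lies apart, on chromosome 19 between Ctrl and Lcat. The 250 bases before the annotated start of these 5 genes (RefSeq, GRCr8, 5′ to 3′ along the gene) are shown because the genes share a known inducer, interferon, but changed in opposite directions with age in the testis. They are chr20:4657032-4657281 (- strand), chr20:4668750-4668999 (+ strand), chr19:50743293-50743542 (- strand), chr15:33038721-33038970 (+ strand) and chr15:33052752-33053001 (- strand). Capitals mark matches to the core of the interferon response element, searched as GAAA, any 2 bases and GAAA, and to TTCNNNGAA, the gamma-activated site.
Psmb8: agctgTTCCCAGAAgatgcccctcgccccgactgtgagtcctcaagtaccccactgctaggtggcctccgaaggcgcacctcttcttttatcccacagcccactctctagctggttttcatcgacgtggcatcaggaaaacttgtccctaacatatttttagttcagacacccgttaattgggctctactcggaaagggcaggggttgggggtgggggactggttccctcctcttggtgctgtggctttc
Psmb9: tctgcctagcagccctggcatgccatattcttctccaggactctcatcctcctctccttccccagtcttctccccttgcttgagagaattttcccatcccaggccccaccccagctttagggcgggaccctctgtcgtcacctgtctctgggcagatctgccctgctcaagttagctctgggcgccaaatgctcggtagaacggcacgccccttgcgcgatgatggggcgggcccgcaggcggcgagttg
Psmb10: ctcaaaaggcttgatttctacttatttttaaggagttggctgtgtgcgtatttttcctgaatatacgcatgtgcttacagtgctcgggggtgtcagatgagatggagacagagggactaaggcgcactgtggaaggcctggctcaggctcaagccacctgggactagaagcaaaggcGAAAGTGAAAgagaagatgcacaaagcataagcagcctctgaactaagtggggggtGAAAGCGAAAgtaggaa
Psme1: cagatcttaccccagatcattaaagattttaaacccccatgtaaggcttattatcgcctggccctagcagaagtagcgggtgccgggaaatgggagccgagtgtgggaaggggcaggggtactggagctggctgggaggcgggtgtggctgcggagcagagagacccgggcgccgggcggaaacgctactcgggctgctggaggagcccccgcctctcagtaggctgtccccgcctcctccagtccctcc
Psme2: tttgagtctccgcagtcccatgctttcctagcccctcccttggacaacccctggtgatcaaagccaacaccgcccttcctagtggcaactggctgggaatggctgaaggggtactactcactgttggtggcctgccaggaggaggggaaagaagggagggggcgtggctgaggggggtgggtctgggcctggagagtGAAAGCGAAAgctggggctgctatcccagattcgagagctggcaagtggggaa
Psmb10 held the interferon response letters at 2 places, from 73 to 64 and from 17 to 8 bases before the start. Psme2 held them at 53 to 44 bases before the start, and Psmb8 held the gamma-activated letters at 245 to 237. Neither pattern was present in the windows of Psmb9 and Psme1.

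Of the 46 members, 42 matched a promoter in the RefSeq table, and Psma7, Psmd6, Psmd12 and Psmd14 did not. Motifs were searched on both strands of the 250 bases before the start. The interferon response core was present in 5 of 42 member promoters (11.9%, against 3.29% of all 27457 promoters), those of Psma4, Psmb3, Psmb10, Psmd7 and Psme2. CCAAT, the box bound by NF-Y, was present in 21 (50%, against 34.3%), and in 5 of the 6 alpha ring promoters, all but that of Psma6. TGACNNNGC, the core of the antioxidant response element through which Nfe2l1 acts on proteasome genes, was present in 6 (14.3%, against 10.2%), namely Psma3, Psmb2, Psmb5, Psmd1, Psmd9 and Psme4. TTCNNNGAA was present in 4 (9.52%, against 7.52%) and a loose NF-kB pattern, GGG and CC with any 5 bases between, in 25 (59.5%, against 43.5%). The member promoters had a median GC content of 57%, against 52% over all promoters. These matches describe the letters and were not tested.

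Values are linear intensities as deposited, and a log2 difference is on the scale log2(intensity + 16). Probe sets differ in brightness for the same amount of RNA, so levels of different genes were not set against each other. The median probe set of an array read 164.4 to 174.5 at GD20, against 100.8 to 114.1 at PND35. The member genes varied little among animals: the median coefficient of variation over the 46 was 3.61% in GD20 oil, 10.3% in GD20 DBP, 8.51% in oil-oil, 8.12% in oil-DBP, 6.96% in DBP-oil and 5.51% in DBP-DBP. In the same groups, the 8045 genes at least as bright as the dimmest member, Psmb8 (mean intensity 309.8), had medians of 5.83%, 10.3%, 10.2%, 12.3%, 9.51% and 8.25%. In 5 of the 6 groups the members' median was therefore the lower one, and in GD20 DBP both were equal at this precision. That set has only a lower bound and was not matched to the members, so the part of brightness in this was not tested. The fetal DBP arrays of dams 19 and 21 stood apart from the other 6 fetal arrays in their control spike-ins (mean log2 intensity 6.33 and 6.23, against 7.74 to 8.33) and in spermatid markers, as given with the fetal results. At PND35 the spike-ins fell into a lower class of 10 arrays (5.75 to 5.98) and a higher class of 6 (6.97 to 7.18), the latter made up of pups 132 and 134 of DBP-oil and all 4 of DBP-DBP.

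The largest differences among the proteasome genes were those between the fetal and the pubertal control testis, and they ran in both directions within the immunoproteasome. Psmb8, the inducible chymotrypsin-like subunit, read 149, 155, 117 and 155 in the 4 GD20 oil arrays and 489, 414, 495 and 355 in the 4 oil-oil arrays. All 4 pubertal arrays lay above all 4 fetal ones, and the gene rose from 143.8 ± 18.04 to 438 ± 66.5 (mean ± SD, n = 4 each; log2 difference 1.503 ± 0.15 (SE), adjusted p = 5.37e-10 by limma). Psmb9, its neighbour in the MHC, read 320, 402, 363 and 312 before birth and 629, 430, 538 and 494 at puberty. The groups did not overlap, though the lowest pubertal array was close to the highest fetal one (0.55 ± 0.14, adjusted p = 0.00117, limma). Psmb10, the inducible trypsin-like subunit, read 706, 762, 711 and 726 before birth and 1087, 943, 932 and 886 at puberty, again without overlap (0.39 ± 0.10, adjusted p = 9.27e-04, limma).

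The PA28 genes went the other way. Psme1 read 5131, 5000, 5074 and 5054 in GD20 oil and 1829, 1200, 1576 and 1740 in oil-oil. The fetal arrays lay within a narrow band far above every pubertal array, and the gene fell by 1.68 on the log2 scale (± 0.10, SE, adjusted p = 1.87e-14, limma), from 5065 ± 54.3 to 1586 ± 278. A second, much dimmer Psme1 probe set (mean intensity 42.6) gave 0.26 ± 0.46 with adjusted p = 0.643 (limma), so it did not pass. Psme2 read 2526, 2572, 2609 and 2482 before birth and 1153, 763, 1078 and 1086 at puberty, also without overlap, and fell by 1.32 (± 0.12, adjusted p = 1.75e-10, limma). Thus the catalytic genes and the cap genes of the immunoproteasome were separated in direction by age, and all 5 differences kept their sign and passed under each of the 4 scalings tried. Of all genes, 28.1% were higher and 26.0% lower under all 4, so passing them all was not particular to these 5.

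**Figure D1:**
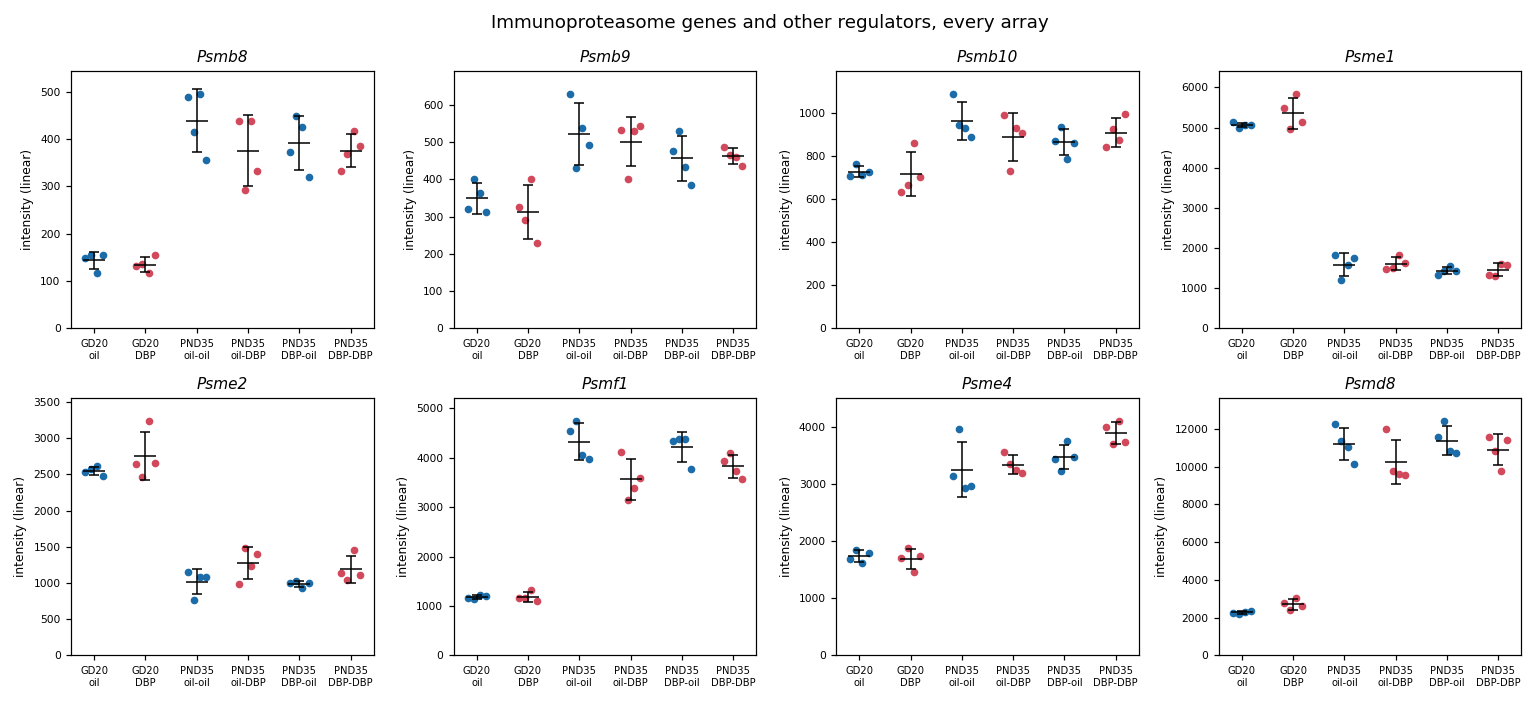
Deposited intensity (linear axis from 0) of 8 proteasome genes on every array, in the 6 groups of 4; red points are arrays whose last treatment was DBP, blue points those whose last treatment was oil, and the black bar is the mean with 1 SD. Psmb8, Psmb9, Psmb10, Psmf1, Psme4 and Psmd8 sit higher in the PND35 groups and Psme1 and Psme2 lower, while within an age the arrays with and without DBP largely share a range.

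Over all members, 39 of 46 passed the threshold (adjusted p under 0.05) between the control testes of both ages, 29 higher at PND35 and 10 lower. The same rule called 73.5% of all 14217 genes, 29.5% higher and 44.0% lower, so most of the transcriptome differed. The median log2 difference was 0.39 over the members and -0.24 over all genes. How many members rose or fell depended on the scaling of the arrays: 29 higher and 10 lower as deposited became 39 and 4 with each array centred on its median (48.8% and 26.0% of all genes), 35 and 6 with centring on the 75th percentile (37.1% and 35.2%), and 24 and 13 with quantile normalization (35.3% and 36.2%). These scalings put the median of all genes at -0.24, 0.42, 0.06 and 0.03. Under all 4 scalings 23 members were higher at PND35 (50.0%, against 28.1% of all genes) and 4 were lower (8.70%, against 26.0%), namely Psma7, Psmd5, Psme1 and Psme2. The other 19 had no call, or one of the other sign, under some scaling. As deposited, the arrays of both ages did not overlap in 39 members (84.8%, against 70.8% of all genes), among them all 23 and all 4.

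Among the alpha ring genes the only stable rise was that of Psma6 and the only stable fall that of Psma7. Psma6 read 10020, 10820, 10670 and 10500 in GD20 oil and 26360, 23090, 24260 and 20080 in oil-oil. Each pubertal array was far above each fetal one (log2 difference 1.15 ± 0.10, adjusted p = 3.31e-11, limma). Psma7 read 5891, 6131, 5625 and 5756 before birth and 2970, 2330, 3015 and 2959 at puberty. The groups lay wholly apart and the gene fell by 1.06 (± 0.09, adjusted p = 4.64e-11, limma). Psma1, Psma3, Psma4 and Psma5 were lower as deposited, by 0.33 to 0.58, but above 0 once the arrays were centred on their medians, and Psma2 did not pass as deposited (-0.10 ± 0.09) but was higher with median centring (0.55) and lower with quantile normalization (-0.51). In the beta ring the analysed catalytic subunit genes, Psmb5 and Psmb7, rose under every scaling, and Psmb6 was not analysed. Psmb5 went from 5620 ± 131 to 9512 ± 566 (0.76 ± 0.08) and Psmb7 from 4510 ± 129 to 6900 ± 480 (0.61 ± 0.08). Psmb1, Psmb2, Psmb3 and Psmb4, whose products have no catalytic site, lay between -0.24 and 0.38 as deposited and had no call that held under every scaling.

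Of the 17 genes of the 19S cap, 8 rose under every scaling, as 28.1% of all genes did, and the calls of the other 9 depended on it. Among the 6 ATPase genes, Psmc1, Psmc2, Psmc3 and Psmc5 rose under every scaling, from 0.48 for Psmc1 to 1.67 for Psmc3. Psmc3 read 3598, 3476, 3353 and 3671 in GD20 oil and 12500, 11530, 10830 and 10190 in oil-oil. The pubertal arrays lay wholly above the fetal ones (mean ratio 3.20). Psmc4 rose as deposited (0.38) but not with quantile normalization (0.04), and Psmc6 was lower as deposited (-0.62) and near 0 with median centring (0.03). Of the 11 other 19S genes, Psmd1 (0.46), Psmd4 (0.62), Psmd6 and Psmd8 rose under every scaling and none fell under all 4. Psmd2 (0.29) and Psmd7 (0.38) rose as deposited but did not pass with quantile normalization (-0.125 and 0.118).

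Psmd8, a lid subunit gene, had the largest difference as deposited of any member but Psmc3ip. It read 2276, 2196, 2315 and 2361 in GD20 oil and 12270, 11360, 11020 and 10170 in oil-oil. Every pubertal array was far above every fetal one (mean ratio 4.90; log2 difference 2.28 ± 0.08, adjusted p = 4.81e-19, limma). In the annotation Psmd8 lies on chromosome 1 between Ggn and Catsperg, genes named for germ cell functions. Psmd6, another lid subunit gene, rose from 3083 ± 244 to 6855 ± 652 (1.15 ± 0.08). The lid genes Psmd3, Psmd11, Psmd12, Psmd13 and the deubiquitinase gene Psmd14 lay between 0.05 and 0.16 as deposited and did not pass. All of them were higher with median centring (0.71 to 0.82) and with centring on the 75th percentile (0.35 to 0.46). With quantile normalization Psmd11 was lower (-0.29) and the others did not pass. For Psmd14 and Psmd11 the other probe sets differed. A Psmd14 probe set of similar brightness rose by 0.38 (adjusted p = 9.84e-06, limma), and a dimmer one (mean intensity 329.8) did not pass (-0.18). A Psmd11 probe set of mean intensity 1819 gave -0.25 and a much dimmer one (39.2) gave 1.47, both with adjusted p under 0.05 (limma).

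Of the 7 assembly chaperone genes, 6 rose under every scaling, as 28.1% of all genes did. These were the 4 genes of the 20S chaperones, Psmg1 (0.87), Psmg2 (1.13), Psmg3 (0.55) and Psmg4 (1.26), and the 19S chaperone genes Psmd9 (0.47) and Psmd10 (0.63). A dimmer Psmd9 probe set (mean intensity 75.3) was lower at puberty (-0.97, adjusted p = 0.0149, limma), so the Psmd9 call rests on the brighter probe set. The exception was Psmd5, which holds 19S ATPases during assembly and is known to inhibit the joining of cap and core. Psmd5 read 2140, 2104, 1844 and 1992 before birth and 950, 851, 1111 and 1010 at puberty. The groups did not overlap, and it fell by 1.03 (± 0.11, adjusted p = 1.32e-09, limma).

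Both testis-linked regulators rose. Psmf1 read 1152, 1149, 1221 and 1199 in GD20 oil and 4534, 4730, 4042 and 3974 in oil-oil. The lowest pubertal array was far above the highest fetal one (log2 difference 1.85 ± 0.08, adjusted p = 1.98e-17, limma). Psme4 read 1684, 1853, 1620 and 1793 before birth and 3140, 3971, 2940 and 2969 at puberty, without overlap (0.89 ± 0.09, adjusted p = 4.97e-10, limma). A second Psme4 probe set of similar brightness gave 0.78, whereas the third and dimmest (mean intensity 887) was lower at puberty (-0.49, adjusted p = 5.03e-06, limma). Outside the complex, Psmc3ip read 566, 640, 680 and 559 before birth and 4594, 4769, 4610 and 4558 at puberty. It had the largest difference of all 46 (2.89 ± 0.08), and Psme3ip1 did not pass (0.13 ± 0.07).

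**Figure D2:**
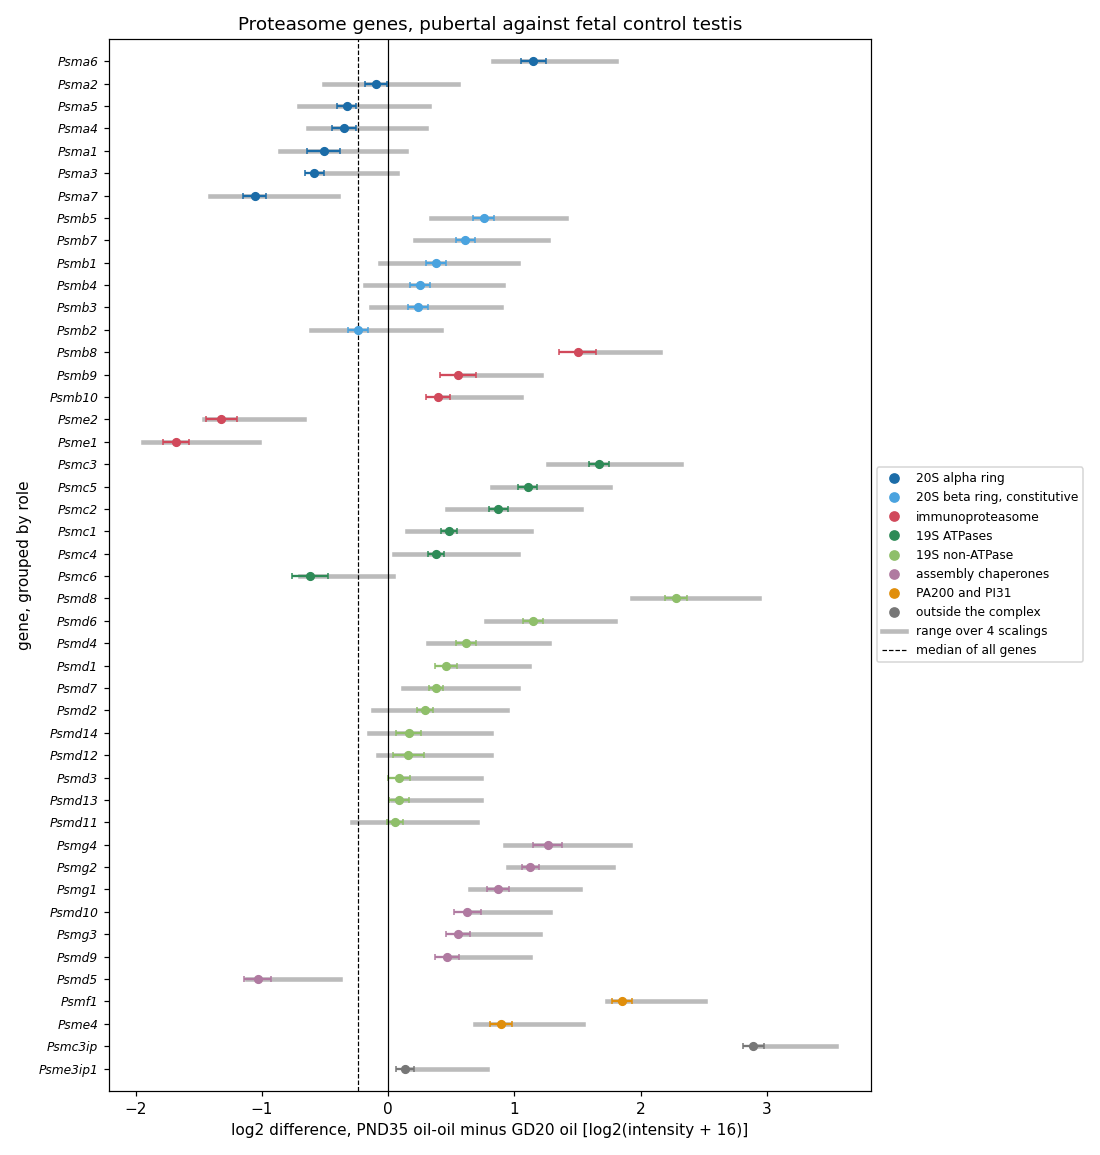
Log2 difference between oil-oil at PND35 and oil at GD20 for the 46 genes, ordered by role; points are the values as deposited with 1 SE, grey bars span the 4 scalings, and the dashed line is the median of all 14217 genes (-0.24). The grey bars of Psmd8, Psmf1, Psmc3ip and the catalytic immunoproteasome genes stay right of 0 and those of Psme1, Psme2, Psmd5 and Psma7 left of it, while most alpha ring bars cross 0.

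The cell composition of the testis differed between the ages in the same arrays. The summed intensity of the 6 measured of 7 spermatid markers was 317 to 364 in GD20 oil and 84380 to 111200 in oil-oil, with all 6 higher. That of 5 of 9 spermatocyte markers rose from between 2169 and 2584 to between 49580 and 57040, with Sycp1 near 0 before birth (mean 1.63). Leukocyte markers, all 12 measured, summed to 2430 to 2609 before birth and 5102 to 6491 at puberty: 4 rose, led by Aif1 and Adgre1, 4 fell, and the pan-leukocyte gene Ptprc read 66.8 and 61.0. The 5 Leydig cell markers summed to 52040 to 55580 and then 14330 to 19760. The part of these shifts in the proteasome differences was not tested, and in whole testis more cells of a type and more RNA per cell cannot be told apart. RNA of all GD20 arrays and of pup 104 was extracted with Trizol and a clean-up and that of the other 3 oil-oil pups with a column kit, so the part of the extraction in the age differences was not tested. The control spike-ins also lay apart, with a mean log2 intensity of 7.74 to 8.03 in GD20 oil and 5.75 to 5.90 in oil-oil. Age and the spike-in level cannot be told apart in this comparison.

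A single DBP dose at PND35 in animals without fetal DBP changed 6 of the 46 genes within 6 hours (13.0%, against 12.2% of all genes), a share near that of all genes. Psmb2 and Psmd5 rose (6.18% of all genes did) and Psmc3, Psmc5, Psmd7 and Psmf1 fell (5.99% did), by 0.28 to 0.40 on the log2 scale. Psmb2, a beta ring gene, read 4223, 4129, 3948 and 4745 in oil-oil and 5293, 5746, 5154 and 5787 in oil-DBP. All treated arrays were above all controls (log2 difference 0.30 ± 0.07, adjusted p = 0.0115, limma). Psmd5, the 19S chaperone gene, read 950, 851, 1111 and 1010 and then 1132, 1545, 1276 and 1478. The groups touched without overlap, pup 105 with DBP lying just above pup 114 with oil (0.40 ± 0.11, adjusted p = 0.0218, limma).

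The 4 genes that fell encode 2 ATPases, a lid subunit and PI31. Psmc5, an ATPase gene, read 4640, 4333, 4252 and 4156 in oil-oil and 3681, 3731, 3568 and 3654 in oil-DBP. The treated arrays lay close together below every control (-0.31 ± 0.07, adjusted p = 0.00647, limma). Psmd7, the lid partner of the deubiquitinase Psmd14, read 3018, 2741, 3103 and 2716 and then 2469, 2463, 2554 and 2496, again without overlap (-0.28 ± 0.07, adjusted p = 0.0105, limma). Its second probe set also fell (-0.37, adjusted p = 0.0241, limma). Psmc3 read 12500, 11530, 10830 and 10190 in oil-oil and 10490, 8737, 9761 and 9126 in oil-DBP (-0.30 ± 0.09, adjusted p = 0.0445, limma), and Psmf1 read 4534, 4730, 4042 and 3974 and then 4107, 3152, 3379 and 3592 (-0.35 ± 0.10, adjusted p = 0.0309, limma). In both genes pup 105, treated with DBP, lay inside the range of the controls.

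These calls rested on few animals. Leaving out 1 array at a time, Psmc5 and Psmd7 passed in all 8 fits, Psmb2 in 7 (not without pup 121), Psmd5 in 4, Psmf1 in 3 and Psmc3 in 2. The number of members past the threshold was 12 without pup 105, 3 without pup 104 or without pup 111, and 2 without pup 121. No share of all genes stands beside these numbers, so they do not set the members apart from other genes. The 12 without pup 105 were the 6 above with Psmc6 and Psme2 higher and Psmb5, Psmd8, Psmg3 and Psmg4 lower. With quantile normalization 3 members passed, all of them higher (6.77% of all genes were higher and 4.31% lower), so the split of 2 higher and 4 lower depended on the scaling. Under that normalization the falls of Psmc5 and Psmd7 were -0.17 and -0.18 with adjusted p of 0.0731 and 0.0725.

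The median difference was -0.12 over the members and -0.11 over all genes. On the centred scale 8 members had groups that did not overlap (17.4%, against 15.2%), and 14 had an unadjusted p under 0.05 (30.4%, against 31.6%). Spermatid markers were lower in the same comparison: 4 of 6 passed, from -0.42 for Prm1 to -0.69 for Prm2, and their summed intensity was 68180 to 101700, with pup 105 at the top, against 84380 to 111200 in oil-oil. None of the 5 measured spermatocyte markers passed (-0.22 to -0.05). The 5 Leydig cell markers summed to 5997 to 13080, against 14330 to 19760. They did not move together: 3 passed as lower and 1, Star, as higher (1.11). The lowest difference was that of Cyp17a1 (-1.50). Of 4 measured Sertoli cell markers, 1 was called higher and 0 lower. Whether the proteasome genes moved with the spermatid share of the tissue was not tested. Psmc3, Psmc5, Psmd7 and Psmf1, which fell here, were higher in the pubertal than in the fetal testis as deposited. Psmb2 and Psmd5, which rose here, were lower there. In that age comparison Psmb2 was higher with median centring (0.42), and Psmd7 did not pass with quantile normalization (0.12). Both comparisons use the oil-oil arrays, so these values are not independent.

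**Figure D3:**
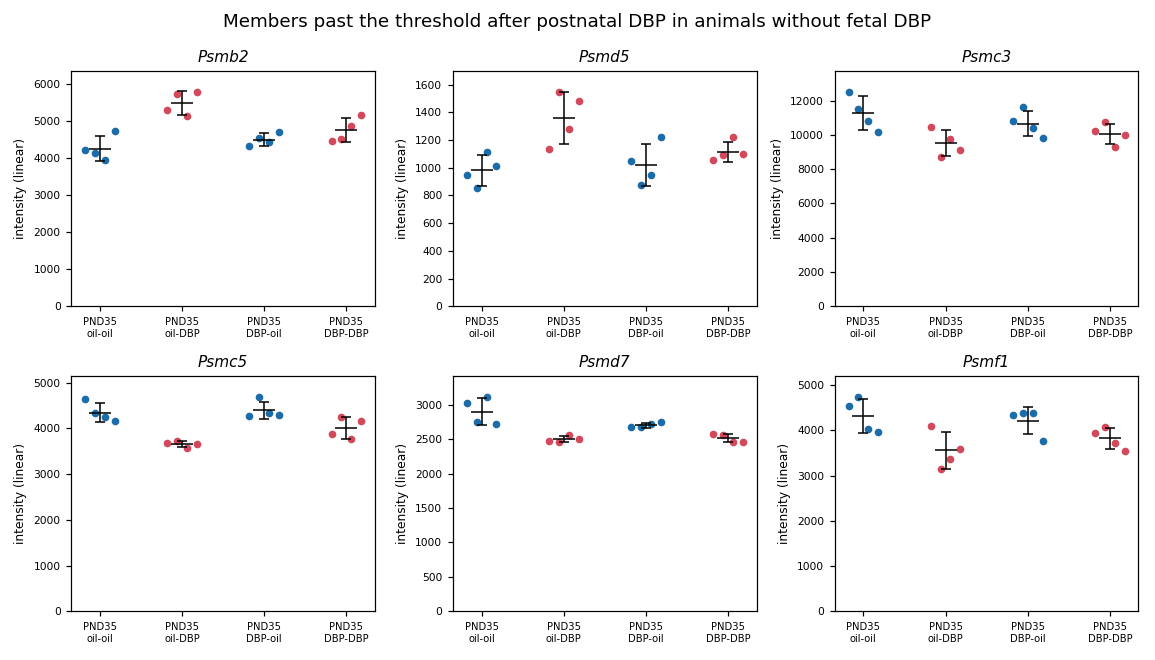
Deposited intensity (linear axis from 0) of the 6 genes past the threshold after postnatal DBP in animals without fetal DBP, on every PND35 array; red points received DBP and blue points oil at PND35, and the black bar is the mean with 1 SD. Oil-DBP stands apart from oil-oil for Psmb2, Psmd5, Psmc5 and Psmd7, and the steps between DBP-oil and DBP-DBP are smaller.

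After fetal DBP, the same postnatal dose called none of the 46 genes, against 7.33% of all genes. Without adjustment 3 passed p under 0.05, all lower (Psma7, Psmc5 and Psme3ip1; 6.52%, against 18.7% of all genes either way and 9.78% lower). On the centred scale 4 had groups that did not overlap (8.70%, against 15.5%). Psmc5 read 4275, 4676, 4341 and 4296 in DBP-oil and 3875, 4259, 3759 and 4157 in DBP-DBP (-0.15 ± 0.07, adjusted p = 0.300, limma). As deposited the groups lay just apart, pup 128 (4259) below pup 123 (4275), but they overlapped once the arrays were centred on their medians. Psmd7 read 2671, 2667, 2718 and 2743 and then 2573, 2561, 2459 and 2462, without overlap (-0.12 ± 0.07, adjusted p = 0.414, limma). The remaining genes called after fetal oil had the same sign here: Psmb2 0.06, Psmd5 0.11, Psmc3 -0.10 and Psmf1 -0.16.

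Across the 46 genes the differences of the 2 postnatal comparisons, which share no array, had a Pearson correlation of 0.67 and a Spearman correlation of 0.65, and 37 had the same sign (80.4%). Over all 14217 genes these were 0.75, 0.46 and 72.9%. The difference between the 2 postnatal effects was tested directly as the interaction of both exposures. No member passed, nor did any gene (0%). Without adjustment Psmb2 alone was under 0.05 (2.17% of members, against 4.58% of all genes), with an interaction of -0.24 ± 0.10 and an adjusted p = 0.954 (limma). The smaller effect after fetal DBP is therefore not shown to differ from that after fetal oil.

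In the fetal testis, DBP called none of the 46 genes, against 0.556% of all genes. Without adjustment 9 passed p under 0.05 and all 9 were higher (19.6%, against 7.47% of all genes higher and 13.0% either way). They were Psmb1, Psmb3, Psmb5 and Psmb7 of the beta ring, the lid gene Psmd8, and the chaperone genes Psmd10, Psmg2, Psmg3 and Psmg4. Psmg3, a 20S chaperone gene, had the smallest p: it read 915, 923, 879 and 895 with oil and 1132, 1043, 1261 and 1069 with DBP. The groups lay wholly apart (0.31 ± 0.07, adjusted p = 0.107, limma). Psmb7 read 4339, 4514, 4537 and 4652 with oil and 5282, 4844, 6195 and 5609 with DBP, without overlap (0.28 ± 0.08, adjusted p = 0.194, limma). In all, 5 members had fetal groups that did not overlap, all higher with DBP (10.9%, against 4.68% of all genes higher and 8.41% either way). The median difference was 0.08 over the members and 0.02 over all genes.

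Dams 19 and 21, which stood apart in their spike-ins, gave the highest 2 fetal values of Psmb1, Psmb3, Psmb5 and Psmb7, for example 6847 and 6945 for Psmb5, against 6285 and 5555 in dams 16 and 18. Their summed spermatid markers were 612.5 and 3845, against 299.1 to 373.4 in the other 6 fetal arrays, although the fetal testis has no spermatids. Without these 2 arrays 0 members passed with adjustment (limma; 0.535% of all genes did) and 3 without it, all higher (6.52%, against 5.95% of all genes higher), and the median over the members was 0.04. Psmg3 was then 0.26 ± 0.07 (adjusted p = 0.130) and Psmb7 0.16 ± 0.06 (adjusted p = 0.339, limma). The part of the material in dams 19 and 21 in the larger values was not tested. Without dam 18, 1 member passed, Psmg4 (0.39 ± 0.07, adjusted p = 0.0345, limma), with no share of all genes at hand for that fit.

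Fetal DBP left no call at PND35. Between DBP-oil and oil-oil none of the 46 passed, nor did any gene (0%), and 2 passed without adjustment, both lower: Psmb3 (-0.24) and Psmg4 (-0.28). That is 4.35% of members, against 6.44% of all genes either way and 3.97% lower, and 3 members had groups apart on the centred scale (6.52%, against 3.92%). Psmb3 was below oil-oil in every DBP-oil array (3811 ± 190 against 4455 ± 401, adjusted p = 0.404, limma). Between DBP-DBP and oil-DBP again none passed and no gene did (0%), and 6 passed without adjustment (13.0%, against 9.75%): Psmc5, Psmd12, Psmd14 and Psme4 higher (5.53% of all genes were) and Psmb2 and Psmd5 lower (4.22% were). There 4 members had groups apart (8.70%, against 5.23%). Psme4 was above oil-DBP in every DBP-DBP array, with 4004, 3714, 4101 and 3740 against 3568, 3361, 3253 and 3202 (0.24 ± 0.09, adjusted p = 0.413, limma). Every DBP-DBP array was in the higher spike-in class and every oil-DBP array in the lower one. Fetal DBP and that class cannot be told apart in this comparison. RNA of pups 104 (oil-oil) and 115 (oil-DBP) was extracted with Trizol, that of the other PND35 pups with a column kit.

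**Figure D4:**
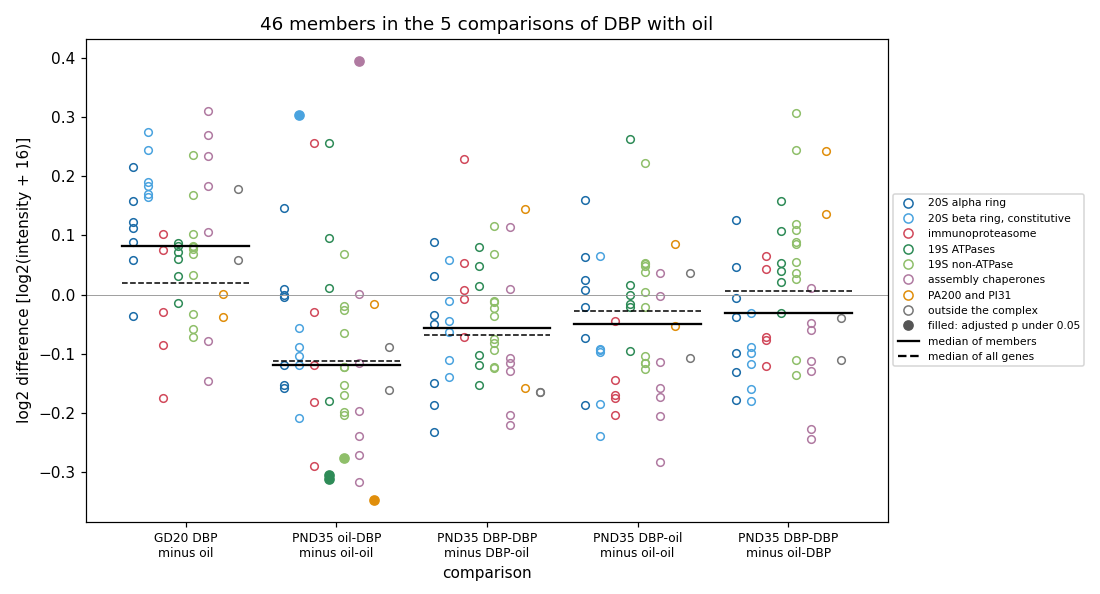
Log2 difference of each of the 46 genes in the 5 comparisons of DBP with oil, coloured by role; filled points passed the threshold, the solid line is the median of the members and the dashed line that of all genes. Only oil-DBP against oil-oil has filled points, 2 above and 4 below 0, and the member medians lie between -0.12 and 0.08.

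The 5 immunoproteasome genes gave no call in any of the comparisons with DBP. Of all genes, 12.2% were called after postnatal DBP alone, 7.33% after postnatal DBP following fetal DBP, and 0.556% at GD20. Between fetal DBP and fetal oil at PND35, 0% were called. With only 5 genes, the lack of calls does not set this group apart from other genes. After postnatal DBP alone, Psmb8 read 439, 292, 439 and 331, against 489, 414, 495 and 355 with oil (-0.29 ± 0.15, adjusted p = 0.249, limma). Psme2 read 983, 1489, 1235 and 1403, against 1153, 763, 1078 and 1086 (0.26 ± 0.12, adjusted p = 0.213, limma). The groups overlapped for both genes. After fetal DBP, Psme2 read 1131, 1047, 1458 and 1115 with postnatal DBP and 996, 1032, 934 and 994 without (0.23 ± 0.12, adjusted p = 0.417, limma), and these groups did not overlap. Psmb9, Psmb10 and Psme1 lay between -0.18 and -0.03 after postnatal DBP alone and between -0.01 and 0.05 after fetal DBP. The median of the 5 immunoproteasome genes was -0.12 and that of the 30 constitutive core and 19S genes -0.11 after postnatal DBP alone, and 0.01 and -0.05 after fetal DBP. At GD20 these medians were -0.03 and 0.08.

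To ask whether an inducible subunit moved apart from the one it replaces, the log2 ratio of their intensities was compared within arrays. That could be done for Psmb8 over Psmb5 and Psmb10 over Psmb7, and the 10 tests were exact permutation tests, two-sided, of 4 against 4 arrays, which cannot give a p below 0.0286. The ratio of Psmb10 to Psmb7 at GD20 reached that value: it was -2.91 ± 0.10 with DBP and -2.61 ± 0.05 (SD, n = 4) with oil, a difference of -0.30 with every treated array below every control (exact p = 0.0286, adjusted p = 0.286). The ratio of Psmb8 to Psmb5 at GD20 differed by -0.27, with overlap (exact p = 0.0857, adjusted p = 0.381). In the 8 PND35 tests the differences lay between -0.12 and 0.16 and no unadjusted p was below 0.114. None of the 10 passed after adjustment, but with that smallest p at least 6 of the 10 would have to reach it for any to pass, so a single ratio that separated fully could not.

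Of 10 measured antigen processing genes, 2 passed after postnatal DBP alone (12.2% of all genes did). Irf1, the transcription factor that acts on interferon response elements, rose from a mean of 264 to 1488 (2.32 ± 0.18, adjusted p = 1.12e-08, limma). Erap1, the peptidase that trims peptides for MHC class I, rose from 436 to 817 (0.82 ± 0.16, adjusted p = 0.00135, limma). The other 8 did not pass, among them Tap1 and Tap2, the neighbours of Psmb8 and Psmb9. After fetal DBP, Irf1 alone of the 10 passed (7.33% of all genes did; 2.45 ± 0.18, adjusted p = 5.89e-09, limma). Psmb10 and Psme2, whose promoters hold the interferon response letters, gave the values above 6 hours after the dose. The other members with these letters were Psmd7, Psma4 and Psmb3. After postnatal DBP alone Psmd7 fell (-0.28), and Psma4 (-0.12) and Psmb3 (-0.09) did not pass. With age, Irf1 (-1.98), Erap1 (-2.38) and the loading cofactor Pdia3 (-0.25) were lower at puberty, as 44.0% of all genes were. Tap1 (-0.30) and Tap2 (-0.42) did not pass. Calr, a chaperone of MHC class I folding, rose (0.65), as 29.5% of all genes did.

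Partners of the proteasome outside the rule were followed as a list of 22, of which 20 were measured. Between the ages 9 rose and 7 fell (29.5% and 44.0% of all genes did), with a median of -0.02, against -0.24 over all genes. Those with the smallest p were the deubiquitinase Uchl5 (2.35), the lid component Sem1 (1.16), the shuttle factors Ubqln2 (-1.39) and Ubqln4 (-1.54), and Nploc4 (0.79), which works with the p97 segregase. After postnatal DBP alone 2 rose and 2 fell, where 6.18% and 5.99% of all genes did. Zfand5, an activator of the proteasome, rose (0.52 ± 0.11, adjusted p = 0.00274, limma) with the shuttle factor Rad23b (0.37). Ubqln2 (-0.45) fell with the proteasome-bound ligase Ube3c (-0.28). After fetal DBP, Zfand5 (0.47, adjusted p = 0.00948) and Ubqln2 (-0.45, adjusted p = 0.0347, limma) passed with the same signs, where 7.33% of all genes passed. The other 18 did not. At GD20 none of the 20 passed (0.556% of all genes did), and 5 had an unadjusted p under 0.05 (13.0% of all genes had). Of the 5 listed genes of ubiquitin and its activation only Uba1, the main E1 enzyme, was measured: it fell with age (-1.47, adjusted p = 1.24e-15, limma) and did not pass in any comparison with DBP.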

How the data were processed

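The authors deposited linear probe-set intensity for 24 arrays; GCOS 1.0 stands in the submitters' processing notes, with no role given. No header or label names the summarization algorithm. Of 31099 probe sets, 57 controls were left out and 31042 tested without a further filter, with a pseudocount of 16 before log2. A deposited intensity has no count behind it, so the 4 arrays per group limit the precision. The test was limma 3.58.1 (R 4.3.3; lmFit, eBayes with trend, Benjamini-Hochberg over all tested probe sets, threshold 0.05): GD20 alone as deposited, the 4 PND35 groups in 1 fit with each array centred on its median, and the ages in a fit of all arrays as deposited. Only the fetal fit was tried on simulated data, with the GD20 oil spread in both groups and shifts of 1 log2 unit. The members' differences after DBP were smaller, so recovery of differences of their size was not tested. Of 3 planned subunit pairs, Psmb9 with Psmb6 had no usable probe set, which left 10 tests. Psmb6, Psme3, Psma8 and Psmb11 were left out for want of a probe set with a single symbol. Every member is accounted for. Members past the threshold after DBP and the immunoproteasome genes are named with values, while between the ages some members are given by range. List genes are the up to 5 with the smallest p. Members and lists were chosen with earlier results of these data known. The labels give separate animals, but possible littermates are not marked. Gene numbers of all 46 matched the reference table with the same symbol.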

Additional observations from a re-analysis of the deposited data

Results flagged for a closer look

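In 16 of 276 combinations of gene and group (5.80%), 1 array lay far from the other 3 by Dixon's test. Chance gives about 1 in 20. In oil-DBP the intensities that stood apart were those of Psma5 in pup 105 (3738, the other arrays 4376 to 4488), Psmb9 in pup 111 (401.7, the other arrays 529.2 to 543.8) and Psmd8 in pup 105 (11990, the other arrays 9581 to 9773). In DBP-oil the intensities that stood apart were those of Psma5 in pup 134 (4346, the other arrays 4074 to 4106), Psmc5 in pup 127 (4676, the other arrays 4275 to 4341) and Psmf1 in pup 134 (3769, the other arrays 4332 to 4380). In oil-oil the intensities that stood apart were those of Psma7 in pup 110 (2330, the other arrays 2959 to 3015), Psmd14 in pup 120 (3034, the other arrays 3174 to 3192), Psmd6 in pup 114 (5886, the other arrays 7050 to 7242) and Psmg4 in pup 104 (7464, the other arrays 5247 to 5582). In GD20 oil the intensities that stood apart were those of Psmb2 in dam 4 (4695, the other arrays 5090 to 5142), Psmb3 in dam 3 (3652, the other arrays 3804 to 3820), Psmb8 in dam 4 (117.1, the other arrays 148.7 to 154.9) and Psmd13 in dam 5 (1509, the other arrays 1433 to 1440). In DBP-DBP the intensities that stood apart were those of Psmb5 in pup 133 (7138, the other arrays 8147 to 8313) and Psmc1 in pup 128 (3922, the other arrays 4007 to 4015). No array was set apart in more than 2 genes.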

How the results depend on the processing

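The labels share no replicate numbers between groups. With adjacent pup numbers taken as pairs and fitted as a block, an assumption the labels do not state, postnatal DBP after fetal oil called 8 members in place of 6. That count was 3 with quantile normalization, 3 with the RNA integrity number as a covariate, 3 without the 2 Trizol arrays, 1 without the intensity trend, 1 with the 8 arrays compared alone, and 2 to 12 with 1 array left out. In the fetal comparison it was 0 to 1 with 1 array left out. Between the ages it was 38 to 39 with 1 array left out, and Psmb3 was lost without pup 104. No share of all genes stands beside these counts, other than that for quantile normalization given above. Of the age differences past the threshold as deposited, those that changed sign were, with quantile normalization, Psmb1 (-0.064), Psmb3 (-0.134), Psmb4 (-0.182) and Psmd2 (-0.125), with centring on the 75th percentile, Psmb2 (0.063), with the second probe set, Psmd9 (-0.966) and Psme1 (0.263), and with median centring, Psma1 (0.142), Psma3 (0.069), Psma4 (0.302), Psma5 (0.325), Psmb2 (0.418) and Psmc6 (0.035). Of those not past it, Psmd11 (-0.287), Psmd12 (-0.084) and Psmd14 (-0.153) changed sign with quantile normalization, and Psma2 with median centring (0.553) and centring on the 75th percentile (0.199). The cause was not tested. The other comparisons called 0 members under every alternative run. Detection calls were not used here, so what signal over background limits was not measured.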
